A study of Mus musculus with 6 samples.

Results

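The genes described here encode the mitochondrial respiratory chain and ATP synthase. They were chosen by a rule on symbols, with earlier results of these data known. The rule itself uses no measured value and takes every Nduf, Uqcr and Atp5 gene, Sdha to Sdhd, the Cox4 to Cox8 genes, Cycs and Cyc1. RefSeq lists 98 protein-coding mouse genes with such symbols, and 91 of them had a probe set (the group of array probes made for one transcript) that carried their symbol alone, among 19935 genes measured in this way. The other 7 were not analysed here as single genes. The 13 subunits encoded by mitochondrial DNA were not measured by a probe set with their symbol either, so every value below belongs to a nuclear gene.

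The respiratory chain carries electrons from NADH (through complex I) and succinate (through complex II) to complex III, cytochrome c and complex IV, where oxygen is reduced to water. Complexes I, III and IV pump protons out of the mitochondrial matrix, and ATP synthase uses their return to make ATP. In β cells the ATP made from glucose closes ATP-sensitive potassium channels, which depolarizes the cell and triggers insulin secretion, so this pathway couples glucose to hormone release.

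Whole islets of 16-week-old male mice of C57BL/6 background, reached by backcrossing an outbred stock, were compared between 2 genotypes. The labels give Ins2-rtTA as the genotype of the 3 control samples, whereas a legend of the study for another 24-hour experiment names tetO-Sox17 controls. The 3 Sox17-GOF samples (GOF, gain of function) carried Ins2-rtTA together with tetO-Sox17. All mice of both groups received doxycycline in food and water for 24 hours. The insulin promoter of Ins2-rtTA directs Sox17 to insulin-producing cells, whereas the RNA came from all cells of the purified islets after NuGEN amplification. Fewer cells of a type and less RNA per cell therefore cannot be told apart. Each sample was hybridized to one Affymetrix Mouse Gene ST array, and the methods call the 3 samples of a genotype independent biological triplicates. The design asks which islet transcripts differ after a 24-hour pulse of Sox17.

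Sox17 itself matched the labels, with log2 levels of 5.50, 5.72 and 5.71 in control and 6.35, 6.22 and 6.36 in Sox17-GOF islets. Arrays of one group correlated at 0.989 to 0.995 over all probe sets, and Sox17-GOF replicate 3 stood apart on the second principal component (19.8% of the variance). Of the 8 β cell markers, 4 were lower in Sox17-GOF islets (Ucn3, Slc2a2, G6pc2 and Slc30a8), and the summed level of the list ran from 15.24 to 15.28 in control and from 14.90 to 14.96 in Sox17-GOF islets (log2 scale). Of 6 endothelial markers 1 was lower (Kdr), and no measured marker of α, δ, PP, acinar, duct, stellate, leukocyte, erythroid or muscle and brown fat cells passed the test. Acinar transcripts were present on every array: the summed level of 6 acinar genes was between 15.26 and 15.53 in control and between 14.76 and 15.69 in Sox17-GOF islets. The part of these cell type differences in the results below was not tested.

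Transcripts of the respiratory chain and ATP synthase differed little between control and Sox17-GOF islets. A single gene of the 91, Cox6b2, passed the test and was higher, and none was lower at an adjusted p of 0.05 with limma, a share of 1.1%. Among all genes, 5.21% passed, 2.77% higher and 2.44% lower in Sox17-GOF islets. At an unadjusted p of 0.05, 7 of the 91 genes passed (7.69%, against 19.7% of all genes): Cox6b2, Cox8c, Ndufa4l2 and Cox5a of complex IV and Ndufa8 of complex I with a fold change above 0, and Ndufs1 and Ndufaf6 of complex I with one below 0. The genes of complexes II and III, Cycs and ATP synthase gave none by their brightest probe set. Dimmer probe sets of Uqcrb (above 0) and of Cycs and Atp5l (below 0) did pass this unadjusted threshold. By the methods' t-test, Cox6b2 and Cox8c passed an unadjusted p of 0.05 with at least a 1.3-fold difference (2.2%, against 7.41% of all genes), and after Benjamini-Hochberg adjustment Cox6b2 alone. The 3 control and 3 Sox17-GOF arrays did not overlap for 10 genes that were higher and 8 that were lower, together 19.8%, where 25.5% of all genes had no overlap.

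The differences were spread evenly around 0. Of the 91 log2 fold changes (Sox17-GOF over control), 45 were above and 46 below 0, with a median of -0.0011, quartiles of -0.076 and 0.075 and a range of -0.38 to 0.58. Over all genes the median was -0.011 and the quartiles were -0.12 and 0.095. The 95% interval of the fold change stayed inside a 1.3-fold change in either direction, the size that the methods took as a threshold, for 74 of the 91 genes (81.3%). The same held for 57.2% of all genes. The 91 genes had a higher median level than all genes (10.78 against 6.70) and a smaller median standard error (0.082 against 0.098). The part of level in this and the other shares was not tested. Of the remaining 17 genes, Cox6b2 had an interval wholly above a 1.3-fold change. Among the other 16, Cox8c had an estimate beyond that limit (0.53) and an interval that reached back inside it (0.24 to 0.81). The intervals of the rest reached the limit from within. A change of that size in these 16 genes was neither shown nor bounded by 3 arrays per group.

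**Figure D1:**
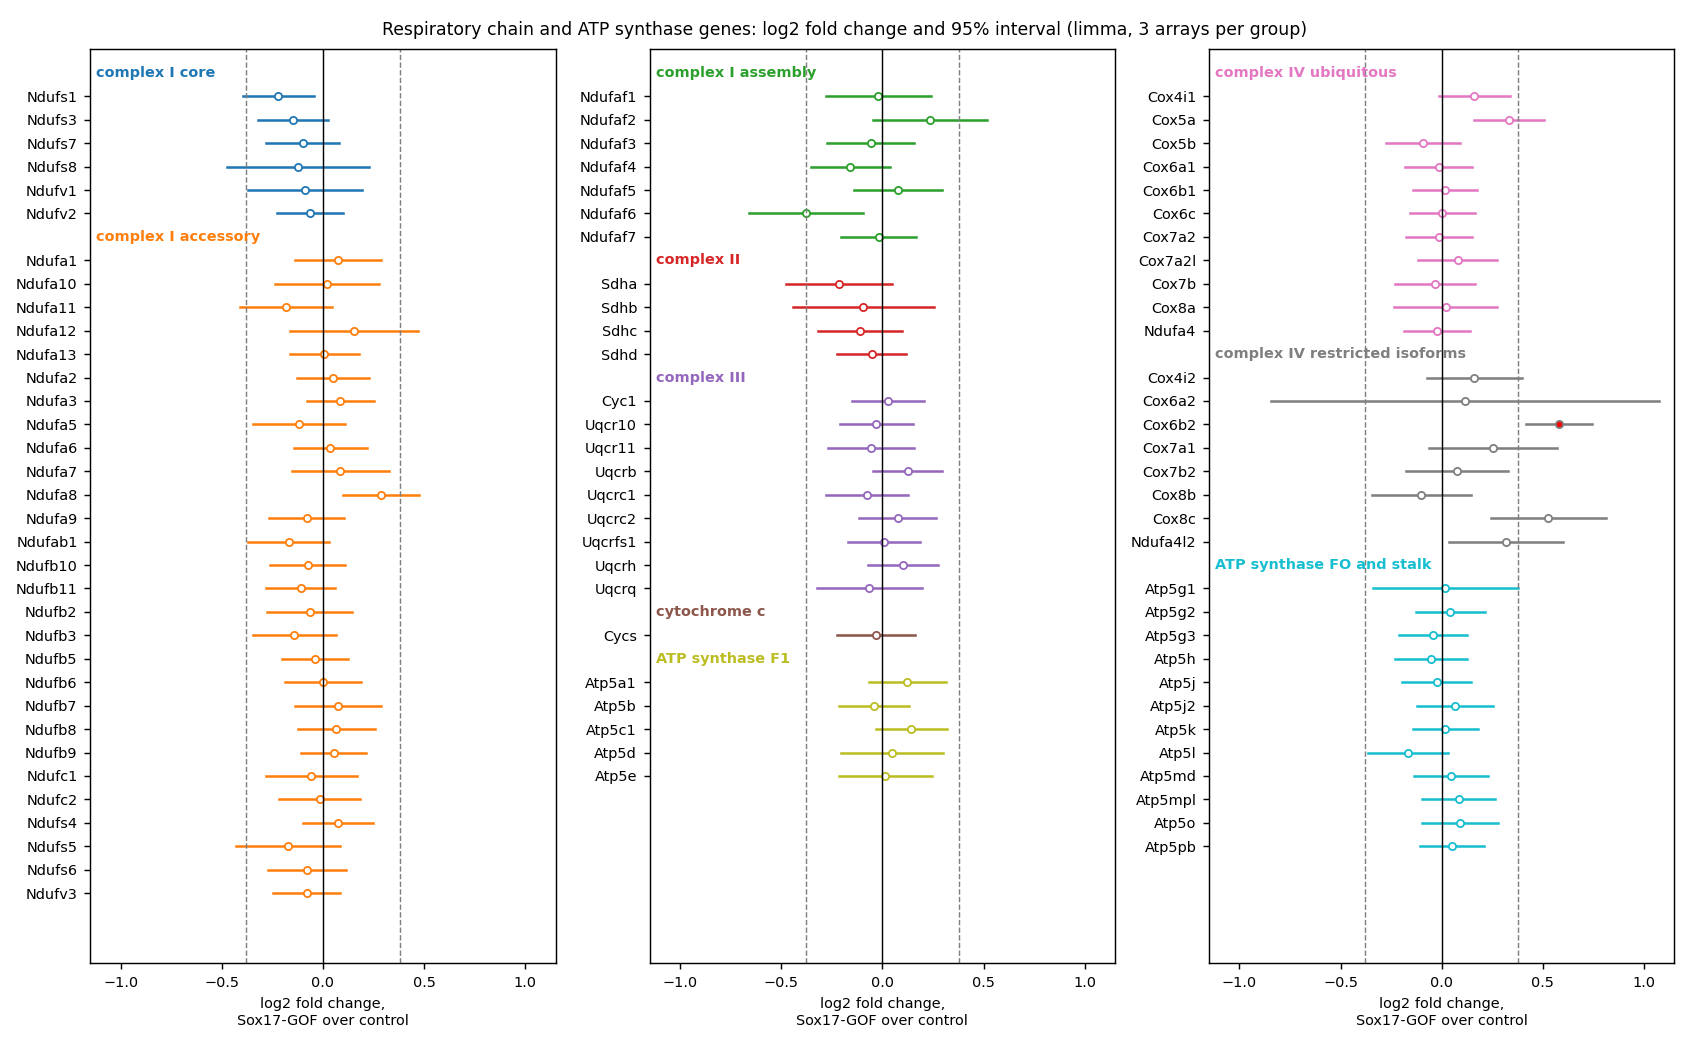
Log2 fold change (Sox17-GOF over control, x axis) of each of the 91 genes, grouped by complex. Circles are estimates, horizontal lines are 95% intervals from limma (3 arrays per group), and dashed lines mark a 1.3-fold change (0.38 on the log2 scale) in either direction. The filled red circle is Cox6b2, the gene that passed an adjusted p of 0.05, at 0.58; the other 90 circles are open, and the interval of Cox6a2 is the widest, from -0.84 to 1.08.

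The gene that passed the test belongs to cytochrome c oxidase (complex IV), the enzyme that passes electrons to oxygen. Several of its small nuclear subunits exist in a form used by most tissues and in forms restricted to some tissues. Cox6b2, the testis form of a subunit at the cytochrome c side of the enzyme, had log2 levels of 6.25, 6.29 and 6.21 in control and 6.85, 6.82 and 6.80 in Sox17-GOF islets. The 3 Sox17-GOF arrays all lay above the 3 control arrays, and the arrays of one genotype were close together. The control levels lay below, and the Sox17-GOF levels above, the medians of all probe sets on the 6 arrays (6.31 to 6.41). Whether such levels stand above background was not tested. The log2 fold change was 0.58 ± 0.07 (SE, n = 3 per group; 95% interval 0.42 to 0.74), a 1.49-fold higher level with an adjusted p of 0.0052. It passed the threshold under all 15 alternatives, with adjusted p-values up to 0.035. Its ubiquitous counterpart Cox6b1 had levels of 12.80, 12.77 and 12.78 in control and 12.82, 12.80 and 12.78 in Sox17-GOF islets. These overlap, and the 95% interval of the log2 fold change was -0.14 to 0.17.

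Both genes of this isoform pair lie on the minus strand of mouse chromosome 7, Cox6b2 at chr7:4751792-4753094 and Cox6b1 at chr7:30616971-30626114 (GRCm38.p6). The 250 bases before each start (chr7:4753095-4753344 for Cox6b2 and chr7:30626115-30626364 for Cox6b1, read on the minus strand) are given here from RefSeq, 5′ to 3′, because this is the pair in which one isoform differed and the other did not. Letters were searched on both strands: AACAAT and ACAAAG (SOX factor cores), CCAAT (the CCAAT box), CCGGAAG (the core read by ETS factors such as GABPA), GCGCATGC (NRF1), AAGATGGC (YY1) and AAGGTCA (estrogen-related receptors). Capitals mark every match, in the direction in which it stands.
Cox6b1: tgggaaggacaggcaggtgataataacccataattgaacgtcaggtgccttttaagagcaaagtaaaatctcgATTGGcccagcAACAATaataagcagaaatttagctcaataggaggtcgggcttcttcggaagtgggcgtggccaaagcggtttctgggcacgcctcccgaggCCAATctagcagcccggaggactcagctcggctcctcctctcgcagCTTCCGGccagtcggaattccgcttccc
Cox6b2: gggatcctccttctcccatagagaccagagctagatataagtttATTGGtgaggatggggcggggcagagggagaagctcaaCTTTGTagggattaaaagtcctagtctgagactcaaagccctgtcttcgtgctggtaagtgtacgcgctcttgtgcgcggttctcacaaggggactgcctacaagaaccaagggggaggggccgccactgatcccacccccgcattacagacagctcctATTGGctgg
The Cox6b2 sequence holds ACAAAG as its reverse complement CTTTGT, 168 bases before the start, and a pair of CCAAT boxes that stand as ATTGG. The Cox6b1 sequence holds AACAAT, 166 bases before the start, the ETS core as CTTCCGG and a pair of CCAAT boxes. A match is a description of letters and not a site of binding.

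The same letters were counted in the 300-base windows (250 before and 50 after the start) that RefSeq gives for 74 of the 91 genes, 79 windows in all, and in all 32851 mouse windows. GCGCATGC stood in 16.5% of the windows of respiratory genes and in 2.71% of all windows. CCGGAAG stood in 22.8% and 8.86%, AAGATGGC in 12.7% and 2.75%, and AAGGTCA in 8.86% and 4.72%. The SOX cores were not more frequent than elsewhere: AACAAT stood in 8.86% of the windows of respiratory genes and 10.7% of all windows, and ACAAAG in 17.7% and 18.7%. CCAAT stood in 43.0% and 37.4%.

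None of the other restricted forms of complex IV subunits passed the test. Of all 8 such genes, Cox6b2 included, 7 had a log2 fold change above 0, with a median of 0.21. Ndufa4l2, the paralogue of the complex IV subunit gene Ndufa4, was put in this group after the data were examined. For 3 genes the arrays did not overlap between groups (Cox6b2, Cox8c and Ndufa4l2), or 37.5% against 25.5% of all genes. The median level of the 8 genes was 6.42, against 6.70 over all genes. These figures include the gene that passed and a gene placed with its value known, so they only describe the group. The median of these 8 genes on each array, relative to the control mean of each gene, was between -0.022 and 0.004 in control and between 0.19 and 0.29 in Sox17-GOF islets. Cox8c, a testis form, had levels of 5.05, 5.33 and 5.20 in control and 5.93, 5.69 and 5.54 in Sox17-GOF islets. All 3 Sox17-GOF arrays were above all control arrays, and the log2 fold change of 0.53 ± 0.12 (SE) had an adjusted p of 0.055. Under the 15 alternatives the adjusted p ran from 0.038 to 0.21, and it was below the threshold with array weights (0.043), with the mean of probe sets (0.044) and without Sox17-GOF replicate 3 (0.038).

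Ndufa4l2, which is induced by hypoxia in other cells, had levels of 6.46, 6.34 and 6.80 in control and 6.84, 6.84 and 6.87 in Sox17-GOF islets, a log2 fold change of 0.32 ± 0.12 (SE, adjusted p = 0.21). Here control replicate 3 lay close to the Sox17-GOF arrays. Cox4i2, the lung form of the regulatory subunit 4, overlapped between groups (0.16 ± 0.10, adjusted p = 0.46). Cox7a1, a form of heart and skeletal muscle, had 6.45, 6.33 and 6.38 in control and 6.37, 6.64 and 6.92 in Sox17-GOF islets, and this wide spread gave an adjusted p of 0.37.

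Cox6a2, another striated muscle form, was the most variable gene of the set. Its level was 11.07, 9.50 and 9.56 in control and 10.61, 9.97 and 9.90 in Sox17-GOF islets. Replicate 1 of each group was the highest, and the interval of the log2 fold change, -0.84 to 1.08, leaves its change undetermined. Cox8b, the third muscle form, overlapped at -0.10 ± 0.11. The muscle and brown fat markers Myh4, Acta1, Ckm and Ucp1 did not pass the test, with log2 fold changes between -0.09 and 0.08, and Ucp1 (4.52 to 4.74 over the 6 arrays) was near 4.63, the 20th percentile of all values. Cox7b2, a testis form, was the one gene of the 91 with both group means below that percentile.

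**Figure D2:**
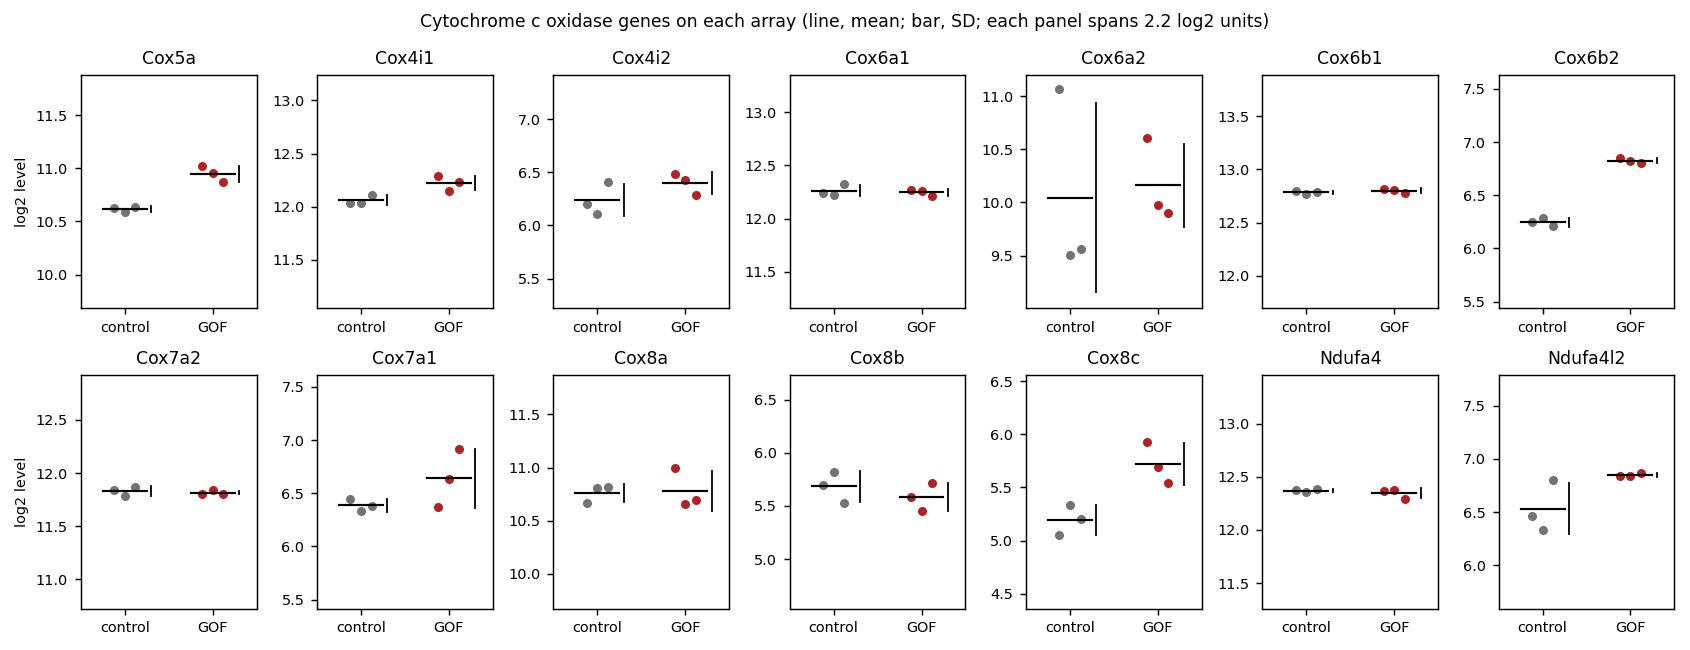
Log2 level (y axis) of 14 cytochrome c oxidase genes on each of the 3 control (grey) and 3 Sox17-GOF (red) arrays, with the group mean as a horizontal line and the SD as a vertical bar. Every panel spans the same number of log2 units but has its own position, since levels of different probe sets cannot be compared. The arrays do not overlap for Cox6b2, Cox5a, Cox8c, Cox4i1 and Ndufa4l2, they overlap for the other 9 genes, and Cox6a2 spreads over more than 1 log2 unit within the control group.

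The 11 complex IV genes used by most tissues include Cox7a2l, a factor of supercomplexes (assemblies of several complexes). None of the 11 passed the test, and the median log2 fold change was 0.003. Cox5a, a subunit on the matrix side of the enzyme, came closest. It had levels of 10.63, 10.59 and 10.63 in control and 11.02, 10.95 and 10.87 in Sox17-GOF islets. The groups were well separated, with a log2 fold change of 0.33 ± 0.07 (SE; 95% interval 0.16 to 0.51), but the adjusted p of 0.0505 lay just past the threshold. It passed with array weights (0.036), an intensity trend (0.032), the mean of probe sets (0.044) and quantile normalization (0.022), and missed it under the other 11 alternatives.

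Cox4i1, the common form of subunit 4, had 12.04, 12.04 and 12.11 in control and 12.29, 12.15 and 12.23 in Sox17-GOF islets (0.16 ± 0.08, adjusted p = 0.30). Its arrays did not overlap between groups, although the difference was small. The other 9 genes had log2 fold changes between -0.09 (Cox5b) and 0.08 (Cox7a2l), and their arrays overlapped. The common forms Cox6a1 (-0.02), Cox7a2 (-0.01), Cox8a (0.02) and Ndufa4 (-0.02) each had an interval within a 1.3-fold change.

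Complex I, the NADH dehydrogenase and the largest complex of the chain, was represented by 41 genes. None of the 28 accessory subunits, 7 assembly factors and 6 core subunits passed the test. The core subunits carry the flavin and the iron-sulfur clusters that lead electrons from NADH to coenzyme Q. All 6 had a log2 fold change below 0, from -0.06 to -0.22 with a median of -0.11. For 3 of them the arrays did not overlap between groups, where 25.5% of all genes had no overlap. Whether these 6 genes, measured on the same arrays, differ from that share was not tested. Ndufs1, the large subunit with several of the iron-sulfur clusters, had 10.05, 10.05 and 9.97 in control and 9.89, 9.77 and 9.75 in Sox17-GOF islets. Every Sox17-GOF array was lower, with a log2 fold change of -0.22 ± 0.08 (SE) and an adjusted p of 0.17. Ndufs3 had 10.29, 10.31 and 10.31 in control and 10.19, 10.20 and 10.07 in Sox17-GOF islets (-0.15 ± 0.07, adjusted p = 0.335).

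The core subunits did not move alike on all Sox17-GOF arrays. Their median relative to control was -0.03 on replicate 1, -0.22 on replicate 2 and -0.19 on replicate 3, and between -0.010 and 0.022 on the control arrays. The median log2 fold change was -0.19 without Sox17-GOF replicate 1, -0.06 without Sox17-GOF replicate 2 and -0.07 after quantile normalization. Sox17-GOF replicate 1 also had the lowest level of the acinar gene Cpa1, 12.01, against 12.66 to 13.15 on the other 5 arrays. The part of acinar RNA in the difference between the Sox17-GOF arrays was not tested. Ndufs8 shows the split between arrays in a single gene: 9.58, 9.41 and 9.34 in control, and 9.67, 9.14 and 9.16 in Sox17-GOF islets. Its interval, -0.47 to 0.23, reaches a 1.3-fold decrease.

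The 28 accessory subunits, which surround the core, had a median log2 fold change of -0.009, with 13 above and 15 below 0. For 24 of them the interval stayed within a 1.3-fold change. Ndufa8, an intermembrane-space subunit with paired cysteines, had the largest difference, with 9.57, 9.39 and 9.46 in control and 9.84, 9.72 and 9.73 in Sox17-GOF islets. The groups did not overlap, and the log2 fold change of 0.29 ± 0.08 (SE) had an adjusted p of 0.095. Ndufa11 (-0.18 ± 0.10, adjusted p = 0.37) and Ndufs5 (-0.17 ± 0.11, adjusted p = 0.47) were the next in size, and both overlapped between groups.

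Among the 7 assembly factors with an Ndufaf symbol, Ndufaf6 was the farthest from 0 of all genes below it. Its levels were 7.13, 7.23 and 7.00 in control and 6.88, 6.84 and 6.50 in Sox17-GOF islets. The groups did not overlap, but control replicate 3 and Sox17-GOF replicate 1 were close, and the log2 fold change of -0.38 ± 0.12 (SE) had an adjusted p of 0.14. Ndufaf2 (0.23 ± 0.12, adjusted p = 0.36) and Ndufaf4 (-0.16 ± 0.08, adjusted p = 0.37) overlapped between groups.

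Complex II, or succinate dehydrogenase, takes part in both the citric acid cycle and the respiratory chain. Its 4 subunits all had log2 fold changes below 0, from -0.05 (Sdhd) to -0.21 (Sdha), with a median of -0.10, and none passed the test. Sdha, the flavoprotein that oxidizes succinate, had 10.69, 10.87 and 11.00 in control and 10.81, 10.57 and 10.53 in Sox17-GOF islets. Sdhb, the iron-sulfur subunit, had 10.22, 10.04 and 10.04 in control and 10.30, 9.70 and 10.01 in Sox17-GOF islets. All 4 genes overlapped between groups, and Sox17-GOF replicate 1 was within the control range for Sdha and above it for Sdhb. Sdhc, a membrane anchor, differed by -0.11 ± 0.09 (SE, adjusted p = 0.57). The median of the complex was -0.20 without Sox17-GOF replicate 1, -0.06 without Sox17-GOF replicate 2 and -0.04 after quantile normalization.

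**Figure D3:**
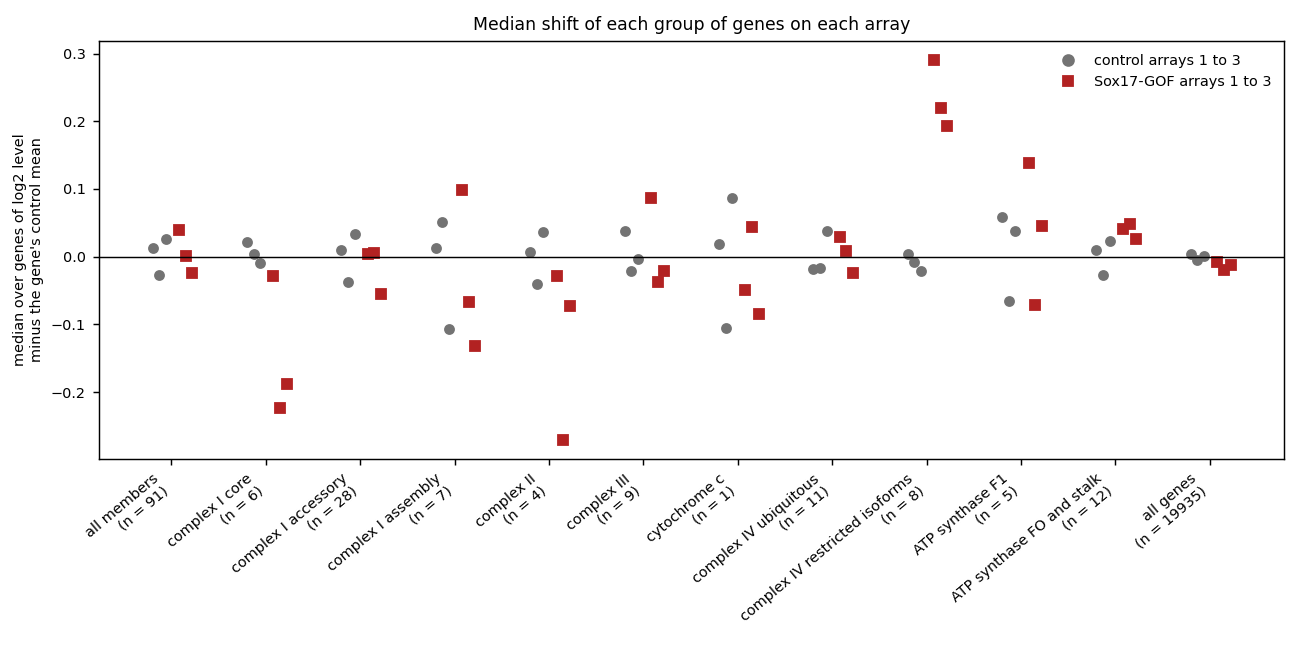
Median over the genes of each group (n in parentheses) of the log2 level minus the control mean of each gene (y axis), for each control (grey circles) and Sox17-GOF (red squares) array in order of replicate number. The restricted complex IV isoforms (Ndufa4l2 was placed there after the data were examined) lie between 0.19 and 0.29 on the Sox17-GOF arrays. Complex I core subunits lie at -0.22 and -0.19 on replicates 2 and 3 but at -0.03 on replicate 1. All 91 genes together stay between -0.027 and 0.039.

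Complex III passes electrons from coenzyme Q to cytochrome c. The interval stayed within a 1.3-fold change for all 9 of its genes, and the median log2 fold change was 0.009. Uqcrb, a small subunit near the coenzyme Q site, had 11.47, 11.48 and 11.56 in control and 11.68, 11.62 and 11.59 in Sox17-GOF islets (0.13 ± 0.07, adjusted p = 0.42), with no overlap. A dimmer probe set of Uqcrb had 7.74, 7.59 and 7.60 in control and 8.13, 8.46 and 8.15 in Sox17-GOF islets, and its log2 fold change of 0.60 ± 0.11 (SE) passed the test (adjusted p = 0.024). A further Uqcrb probe set gave 0.07 ± 0.07, so the 3 probe sets of this gene disagree. Uqcrh (0.10) and the core protein Uqcrc1 (-0.08) overlapped between groups. Cytochrome c, Cycs, which carries electrons from complex III to complex IV, had 12.11, 11.98 and 12.17 in control and 12.04, 12.13 and 12.00 in Sox17-GOF islets. These overlap, and the interval of its log2 fold change was -0.22 to 0.16. The mean of its 3 probe sets gave -0.19.

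ATP synthase makes ATP from the proton gradient. None of its 17 genes passed the test, and for the brightest probe set of all 17 the interval stayed within a 1.3-fold change, though that of Atp5g1 came close to it (-0.34 to 0.376). In the F1 part, which holds the catalytic sites, 5 genes had a median log2 fold change of 0.05, which ran from -0.03 to 0.13 when an array was left out. Atp5c1, the rotating γ subunit, had 11.65, 11.76 and 11.81 in control and 11.88, 11.88 and 11.89 in Sox17-GOF islets. The arrays did not overlap, but the difference of 0.14 ± 0.08 (SE) had an adjusted p of 0.36. Atp5a1, the α subunit, differed by 0.12 ± 0.08 with overlap, and Atp5d, the δ subunit, by 0.05 ± 0.11.

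In the membrane part and stalk (FO), 12 genes had a median of 0.03. The proton-carrying c ring is encoded by 3 genes with nearly the same mature protein, and all were close to 0: Atp5g1 at 0.02 ± 0.15, Atp5g2 at 0.04 ± 0.07 and Atp5g3 at -0.04 ± 0.07. Atp5l, a subunit of the membrane part, had 12.06, 12.16 and 12.26 in control and 11.90, 12.06 and 12.02 in Sox17-GOF islets. Its arrays stood just apart, with a log2 fold change of -0.17 ± 0.09 (SE, adjusted p = 0.35). Its 4 dimmer probe sets had intervals that reached beyond a 1.3-fold decrease, with a lowest bound of -0.58, and 3 of them had no overlap, but none passed the test. Atp5o, the stalk subunit named after oligomycin sensitivity, and Atp5mpl were at 0.09 ± 0.08 and 0.08 ± 0.08.

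Genes outside the symbol rule that serve the same pathway were put in further lists. Among all genes, 5.21% passed the test, and whether any of these short lists differs from that share was not tested. Of 47 further assembly factors, 42 were measured and none passed the test. At an unadjusted p of 0.05, 8 passed, where 19.7% of all genes did. The median log2 fold change was -0.07, and 14 genes had no overlap between groups (13 below and 1 above 0), or 33.3% against 25.5% of all genes. The complex III assembly factor Uqcc2 had 11.04, 10.98 and 11.07 in control and 10.82, 10.56 and 10.47 in Sox17-GOF islets. The groups did not overlap, and the log2 fold change was -0.41 ± 0.10 (SE, adjusted p = 0.071). Over the alternatives its adjusted p ran from 0.026 (without Sox17-GOF replicate 1) to 0.21 (the methods' t-test). Coa3, which stabilizes newly made complex IV subunit 1, differed by -0.33 ± 0.10 (adjusted p = 0.11).

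Of 19 regulators of respiratory genes and mitochondrial DNA, 18 were measured. The arrays did not overlap between groups for 22.2% of them, against 25.5% of all genes. Of these 18 genes, 1 was lower, where 2.44% of all genes were lower. This was Lrpprc, whose protein stabilizes the messenger RNAs made in mitochondria. Its levels were 9.94, 10.06 and 9.78 in control and 9.42, 9.15 and 9.42 in Sox17-GOF islets. The arrays were well apart, with a log2 fold change of -0.60 ± 0.11 (SE; 1.51-fold lower, adjusted p = 0.027). The call did not survive the removal of control replicate 1 (0.098), control replicate 2 (0.11) or replicate 2 of the Sox17-GOF group (0.070), nor did it hold with the replicate number as a block (0.079), in the methods' t-test (0.16) and over all probe sets (0.070). Tfb2m, a mitochondrial transcription factor, had 7.72, 8.26 and 8.94 in control and 7.41, 8.17 and 7.38 in Sox17-GOF islets, a spread that gave -0.65 ± 0.32 and an adjusted p of 0.34. Ppargc1a, a coactivator of respiratory genes, was likewise variable (0.44 ± 0.29, adjusted p = 0.48).

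Of 32 carriers, shuttles, uncoupling proteins and coenzyme Q genes, 30 were measured. The arrays did not overlap between groups for 26.7% of them, against 25.5% of all genes. Of these 30 genes, 1 was higher, where 2.77% of all genes were higher. Slc25a11, the carrier that exchanges 2-oxoglutarate for malate in the malate-aspartate shuttle, had 8.94, 9.01 and 9.06 in control and 9.76, 9.54 and 9.59 in Sox17-GOF islets. All Sox17-GOF arrays lay above the control arrays, and the log2 fold change was 0.63 ± 0.09 (SE; 1.54-fold, adjusted p = 0.0089). The call was lost in the methods' t-test (adjusted p = 0.087). The phosphate carrier Slc25a3, which supplies ATP synthase, had 10.01, 10.03 and 10.18 in control and 10.37, 10.61 and 10.36 in Sox17-GOF islets (0.38 ± 0.10, adjusted p = 0.076). Nnt, which makes mitochondrial NADPH, had 9.31, 9.41 and 9.46 in control and 8.82, 9.20 and 8.87 in Sox17-GOF islets (-0.43 ± 0.12, adjusted p = 0.084). Over the alternatives the adjusted p of Nnt ran from 0.033 (without Sox17-GOF replicate 2) to 0.24 (the methods' t-test).

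**Figure D4:**
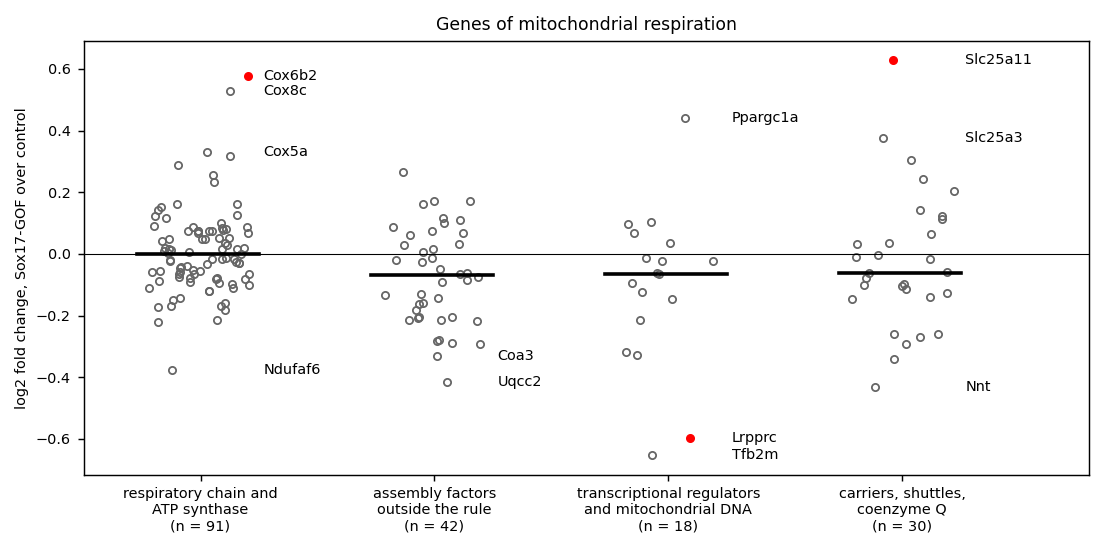
Log2 fold change (Sox17-GOF over control, y axis) of the 91 genes of the respiratory chain and ATP synthase and of 3 further lists of genes of mitochondrial respiration (horizontal position within a list has no meaning). Circles stand for single genes (red if the adjusted p was below 0.05), and the bar is the median of the list. Cox6b2 (0.58), Slc25a11 (0.63) and Lrpprc (-0.60) are the filled circles, and the 4 medians lie between -0.07 and 0.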

How the data were processed

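The authors processed the arrays by RMA, and the deposited values are on its log2 scale: background was corrected, probe intensities were given one distribution over the arrays, and probes were combined into probe sets. GeneSpring is the program named in the methods, Affymetrix Expression Console the one in the submitters' processing notes. Nothing was rescaled here. Of 34760 probe sets, the 22961 with a symbol entered a linear model of genotype without covariates in limma 3.58.1 (R 4.3.3; lmFit, then eBayes). Benjamini-Hochberg adjustment ran over these 22961, with a threshold of 0.05. Each gene takes its values from the probe set that carries its symbol alone and has the highest mean over the 6 arrays, with symbols updated through Entrez IDs. Whether that probe set, or a dimmer one, lies at the locus of the gene was not checked. The fit was also run on simulated arrays with independent noise for each probe set. Such arrays hold no shared array effects, so they cannot show how the fit handles an outlying array.

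The members and lists were chosen with earlier results of these data known. Genes named are those that passed, up to 3 per complex group with the largest difference, isoform pairs, and up to 2 more per further list. Others were named after their values were seen. Ndufa4l2 was put with the restricted complex IV isoforms after the data were examined. The test was repeated with array weights, with an intensity trend, with the replicate number as a block, and by the methods' t-test. It was also repeated after median centring or quantile normalization, with unnamed probe sets included, without dim ones, on gene means over probe sets, and without each array in turn. Sequences are from RefSeq (GRCm38.p6). The number of arrays limits the precision.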

Additional observations from a re-analysis of the deposited data

How the results depend on the processing

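Of 720 values (48 named genes under 15 alternatives), 700 kept their side of the threshold, 7 no longer passed and 13 newly passed. The sign changed in 19 values, none of which passed with or without the alternative. The count of higher genes among the 91 was 1 in the reported fit, 3 with array weights, 3 with the mean of probe sets, 2 with an intensity trend, 2 with quantile normalization, and 1 to 2 when an array was left out (2 without Sox17-GOF replicate 3, which added Cox8c). The genes added were Cox5a and Cox8c. The median log2 fold change of the 91 genes stayed between -0.024 and 0.019. Medians near 0 (complex I accessory subunits and assembly factors, complex III, Cycs, ubiquitous complex IV genes and F1) changed sign under at least 1 alternative.

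Among the genes of the 3 further lists, 1 was higher in the reported fit, 2 with array weights, 2 with quantile normalization and 0 in the methods' t-test. The count of lower genes was 1 in the reported fit, 2 with array weights, 2 with the mean of probe sets, 0 over all probe sets, 0 in the methods' t-test, and 0 to 2 when an array was left out: 0 without control replicate 1 or 2, and 2 without Sox17-GOF replicate 1. The cause was not tested. With a replicate block the count of lower genes was 0, and no other call of a named gene changed. Samples with the same number did not deviate together (correlations of 0.054, -0.018 and -0.041), and those with different numbers gave -0.048 to 0.059. The samples were treated as unpaired, although correlations near 0 cannot show that none were paired. With 3 arrays per group, the 95% interval reached a 1.3-fold change for 17 of the 91 genes.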

Other observations

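Members with more than 1 single-symbol probe set gave 26 further probe sets over 18 genes, and their log2 fold changes differed from those of the brightest one by a median of 0.075. For 3 of them the difference was over 0.2. The dimmer Uqcrb probe set was the one that passed the test. The brightest of the 5 probe sets of Atp5l and the 4 others were all below 0, from -0.12 to -0.35, and none passed (the lowest adjusted p was 0.066). A dimmer probe set of Ndufab1, the mitochondrial acyl carrier protein that is also a complex I subunit, had log2 levels of 8.01, 7.93 and 7.99 in control and 7.70, 7.25 and 6.99 in Sox17-GOF islets. The groups did not overlap, and its log2 fold change was -0.66 ± 0.17 (SE, adjusted p = 0.071 with limma), while the brightest probe set gave -0.17 ± 0.09. A further 6 probe sets carried the symbol of a respiratory gene together with others, and none passed.

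Nrf1 and Pprc1, a transcription factor and a coactivator of respiratory genes, were singled out after their values were seen. Nrf1 had log2 levels of 6.96, 7.16 and 6.97 in control and 6.81, 6.69 and 6.63 in Sox17-GOF islets, and Pprc1 had 7.60, 7.35 and 7.60 in control and 7.15, 7.24 and 7.16 in Sox17-GOF islets. Neither overlapped between groups, and with limma the log2 fold changes were -0.32 ± 0.09 (SE, adjusted p = 0.0997) for Nrf1 and -0.33 ± 0.09 (SE, adjusted p = 0.098) for Pprc1.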
